A study of Mus musculus with 2 samples.

Results

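The enzymes that write, copy, read and remove DNA methylation were followed in 3T3-L1 adipocytes that did or did not receive DF, a preparation of several herbs described as anti-obesity. The set holds 8 of the 24421 genes listed: the methyltransferase genes Dnmt1, Dnmt3a and Dnmt3b, the dioxygenase genes Tet1, Tet2 and Tet3, Uhrf1 and Mbd2. All 8 were found by symbol in both libraries and all lay above 0 in both. They were chosen by function, and selected on earlier results from the same libraries in which Dnmt3b stood among the largest differences, so their values are a description and none was tested.

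3T3-L1 is an established mouse preadipocyte line, for which the labels give C57BL/6 as strain background and passages 10 to 13. That strain entry is repeated as given and was not checked here. Both cultures were taken through the same induction, with insulin (1 µg/mL), dexamethasone (0.25 µM) and the phosphodiesterase inhibitor IBMX (0.5 mM) for 2 days, then insulin alone. The control culture had no further treatment, and the other had DF (DF-GA70 in its title) in the medium until harvest. Each group is 1 library of messenger RNA 3' ends. The dose of DF, the day of harvest and whether cultures were pooled were not given in the sources used here. All 10 mature adipocyte markers examined, from Pparg to Lpl, lay between 11.94 and 17.55 in the control and between 11.84 and 17.55 with DF, on the log2 scale of the deposited values. With DF 1 of them, Cd36, was higher by at least 1.5-fold (1.54-fold) and 0 were lower, beside 10.2% and 10.9% of all genes that reached the median expressed level. Their median difference was 0.16, and their summed linear value was 579493 in the control and 649695 with DF. Of 8 preadipocyte and fibroblast markers, 6 reached the median expressed level in at least 1 library. Of these, 4 were lower by at least 1.5-fold with DF and 0 were higher, where 10.9% of all genes at that level were lower and 10.2% higher. Their summed linear value, most of it from Dlk1, was 118046 in the control and 48942 with DF, and Cd34 was listed at 0 in both. Of 7 macrophage and 6 endothelial markers, none reached the median expressed level in either library. The part that remaining preadipocytes play in the values below was not tested. In RNA from a whole culture, fewer cells of a type and less RNA per cell cannot be told apart.

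In mammals, DNA methylation sits mostly on the cytosine of CG pairs. Dnmt3a and Dnmt3b encode the de novo methyltransferases that place the mark on unmethylated DNA, and Dnmt1 encodes the maintenance enzyme that copies it after replication, brought to the half-methylated strand by the protein that Uhrf1 encodes. The TET proteins oxidise 5-methylcytosine and so start its removal, and MBD2 binds methylated CG and joins the NuRD repressor complex. In fat cell biology these enzymes have been studied for their part in the switch from preadipocyte to adipocyte and in the response of fat cells to insulin.

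The promoters of 3 members are shown because these genes had the largest differences between the libraries, Dnmt3b and Dnmt1 lower with DF and Uhrf1 higher. Each line gives the 250 bases before a transcription start, 5′ to 3′ on the gene's strand, from RefSeq (GRCm38.p6), with capitals marking CG pairs, the substrate of these enzymes. The Dnmt3b stretch is chr2:153649199-153649448 on the plus strand, that of Dnmt1 chr9:20952624-20952873 on the minus strand and that of Uhrf1 chr17:56304063-56304312 on the plus strand.
Dnmt3b: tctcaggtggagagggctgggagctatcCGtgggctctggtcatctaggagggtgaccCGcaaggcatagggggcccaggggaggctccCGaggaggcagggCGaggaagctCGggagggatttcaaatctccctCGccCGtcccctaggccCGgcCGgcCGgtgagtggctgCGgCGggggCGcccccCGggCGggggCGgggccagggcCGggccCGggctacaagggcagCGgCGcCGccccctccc
Dnmt1: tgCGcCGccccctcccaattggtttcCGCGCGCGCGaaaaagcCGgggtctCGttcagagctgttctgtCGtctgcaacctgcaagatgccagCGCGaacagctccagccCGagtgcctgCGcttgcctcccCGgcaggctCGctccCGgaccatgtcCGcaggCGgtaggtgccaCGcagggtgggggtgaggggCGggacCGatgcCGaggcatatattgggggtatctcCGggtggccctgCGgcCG
Uhrf1: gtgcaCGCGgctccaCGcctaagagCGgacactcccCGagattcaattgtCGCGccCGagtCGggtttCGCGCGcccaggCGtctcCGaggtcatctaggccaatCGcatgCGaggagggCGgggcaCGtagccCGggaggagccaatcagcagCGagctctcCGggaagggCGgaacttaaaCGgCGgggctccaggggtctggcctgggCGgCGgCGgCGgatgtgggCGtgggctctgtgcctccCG
The 3 stretches hold 21, 26 and 30 CG pairs, in that order, against a median of 6 over the 32851 mouse promoters of the same length. For Dnmt1 and Uhrf1, which have 3 and 2 starts in the table, the start with the most CG pairs is shown, so their counts are the highest by choice. The other Dnmt1 starts have 7 and 2 CG pairs and the other Uhrf1 start 10. Dnmt3b has 1 start.

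The letters of the site bound by E2F, a factor family of S-phase genes, were searched on both strands as TTTCGCGC, TTTGGCGC, TTTCCCGC or TTTGCCGC. Each spelling contains a CG and so overlaps the pairs counted above. The Dnmt1 stretch holds GCGCGAAA, the reverse strand of TTTCGCGC, from position -219 counted from the start. The Uhrf1 stretch holds TTTCGCGC from position -185. The other starts of both genes lack such letters. None lie in the Dnmt3b stretch, and 1.86% of all promoters hold them, a share that was not computed for CG-rich promoters alone. The values of Dnmt1 and Uhrf1 differed in opposite directions, and a part of E2F in either was not tested. A match in letters is no evidence of binding.

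The deposited values are log2 values brought to nearly 1 common distribution in both libraries, and differences are DF minus control on that scale. Genes counted as examined where either library reached the floor, the median of all non-zero values (8.18, linear 290.75). Such a gene was called higher or lower when the difference was also at least 1.5-fold. Over the 6761 genes examined, 10.9% were called lower and 10.2% higher. At a limit of 2-fold the shares were 3.21% and 2.56%. With 1 library per group there is no replicate spread, so no test was run. Member differences were only set beside those of genes of similar level, as a description.

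Of the 8 members, 5 reached the floor, and of these 3 were called lower (Dnmt1, Dnmt3a and Dnmt3b), 1 was called higher (Uhrf1) and 1, Tet3, was just inside the limit. The choice of members with these values known means that nothing is read from those counts against the 10.9% and 10.2% of all genes. At 2-fold, 2 members were lower (Dnmt1 and Dnmt3b) and 1 was higher (Uhrf1). Dnmt3b passed the floor through its control value alone and Uhrf1 through its DF value alone, so each had to differ to some extent to be examined. With the floor required in both libraries, Dnmt1 and Dnmt3a remained as the 2 calls among 3 examined members. The median difference of the 8 members was -0.20 log2 units, beside 0.04 over the 11744 genes above 0 in both libraries.

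**Figure D1:**
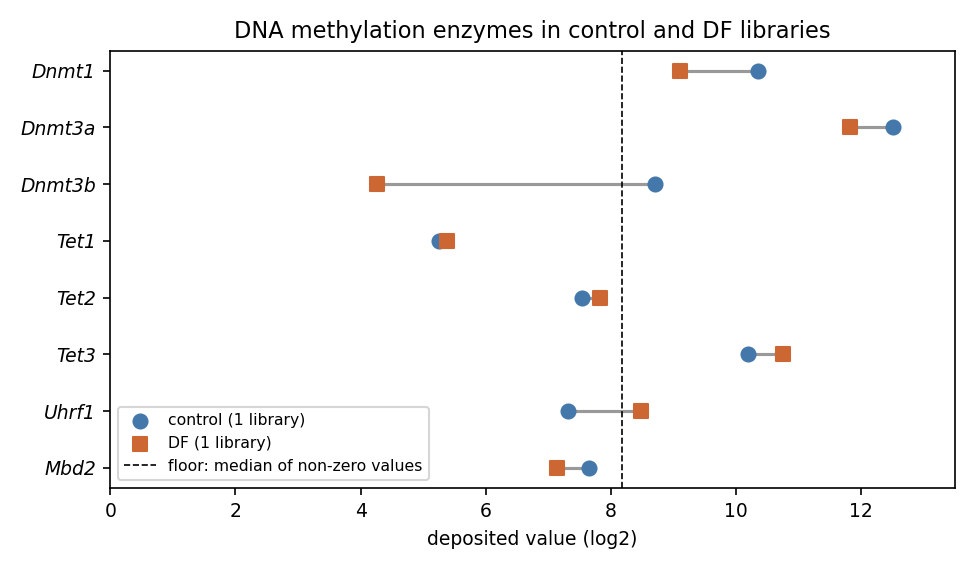
Deposited log2 value (horizontal axis) of each of the 8 genes in the control library (circles) and the DF library (squares), 1 library each, with the floor of 8.18 as a dashed line. The 3 methyltransferase genes lie to the left with DF, Dnmt3b by the longest distance (8.71 to 4.27), and the 3 TET genes lie slightly to the right.

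The methyltransferase genes were all lower in the DF library. Dnmt3b, the de novo enzyme most used in early embryos, was at 8.71 in the control library and 4.27 with DF, which is 419.75 and 19.25 on the linear scale. This is a difference of -4.45 log2 units, 21.8-fold lower with DF. The 200 genes with the closest mean values were taken among those above 0 in both libraries. The middle 90% of their differences ran from -1.19 to 1.34, and none was as low. Genes at 0 in either library could not be among them. Dnmt3b was also selected with its difference known, so nothing is read from its place beside them. Its DF value was low on the scale of that library: counted upward, it was the 18th of the distinct values above 0, a value that 60 genes shared, and in the control it was the 430th. The values come in such tied steps as whole read counts do, but the sources used here do not say whether 1 step is 1 read. Because the DF value is so low, the size of the fold depends on the scale, and adding 32 to both linear values before the log gave 8.81-fold.

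Dnmt1, the maintenance enzyme, was at 10.36 in the control library and 9.11 with DF, or 1314 and 554 on the linear scale. It was thus 2.37-fold lower with DF (difference -1.25) and above the floor in both libraries. None of the 200 genes nearest in mean value had so low a difference, and their middle 90% ran from -0.82 to 0.60. Dnmt3a, the de novo enzyme of differentiated cells, was the most abundant member by deposited value in both libraries. It stood at 12.52 and 11.82, or 5872 and 3619 on the linear scale, 1.62-fold lower with DF (difference -0.70). That lay just past the middle 90% of its 200 neighbours, -0.67 to 0.61, and 10 of them were as low or lower. Both genes were chosen with results of these libraries known, so nothing is read from their places among neighbours.

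Because Dnmt3b differed more than its relative, the 2 de novo genes stood further apart with DF. The Dnmt3a value was 14.0 times that of Dnmt3b in the control and 188 times with DF, on the linear scale. Dnmt3b made up 5.52% of the summed linear value of the 3 methyltransferase genes in the control and 0.459% with DF, whereas the share of Dnmt3a was 77.2% and 86.3% and that of Dnmt1 17.3% and 13.2%. The sum itself was 7605 in the control library and 4192 with DF, 1.81-fold lower, and most of that gap came from Dnmt3a. A library of transcript ends gives each transcript about the same weight whatever its length, so these values were not divided by length. How well each gene's 3' end was captured still enters every ratio between genes. The 188 and the 0.459% also rest on the very low Dnmt3b value with DF, so their size depends on the scale.

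**Figure D2:**
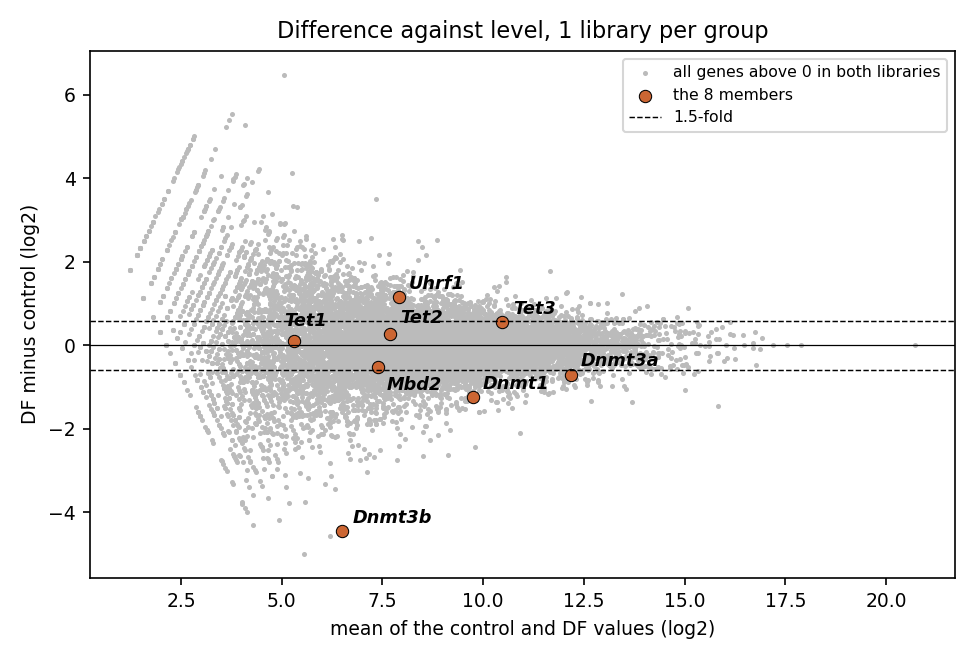
DF minus control (vertical axis, log2) against the mean of both values (horizontal axis, log2) for the 11744 genes above 0 in both libraries (grey) and the 8 members (filled circles), with 1.5-fold limits as dashed lines. Dnmt3b lies at -4.45, below nearly all grey points, Dnmt1 lies at the lower edge of genes of its level, and Tet1, Tet2 and Mbd2 lie inside the cloud.

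Uhrf1 and Dnmt1, whose proteins act together in maintenance, differed in opposite directions. Uhrf1 was at 7.32 in the control library and 8.48 with DF, or 160.1 and 356.75 on the linear scale. The difference of 1.16 is 2.23-fold. Of its 200 neighbours in level 6 had a difference as high, and the middle 90% ran from -1.22 to 0.99. Uhrf1 was chosen with results of these libraries known and examined through its DF value alone. Nothing is therefore read from its place among neighbours. The Dnmt1 value was 8.20 times the Uhrf1 value in the control and 1.55 times with DF. Uhrf1 is also known as an S-phase gene. Of 20 S and M phase genes, 5 reached the floor, of which 1 (Ccna2) was called higher and 1 (Mcm4) lower, beside 10.2% and 10.9% of all examined genes. The median difference was 0.55 over those 5 genes and -0.02 over the 18 above 0 in both libraries, most of them under the floor. Ccna2 passed the floor in the DF library alone and Mcm4 in the control alone. Cdk1, the most abundant of the list by mean value, was 1.497-fold lower with DF (9.11 to 8.53), just inside the limit. Mki67, the usual proliferation marker, was at 4.01 and 3.82, low on the scale of each library. Ccna2, a cyclin of S and G2 phase, was 1.66-fold higher (7.68 to 8.42), but its 3' end overlaps the opposite-strand gene Exosc9, itself 1.59-fold higher. Mcm4, a subunit of the replicative helicase, was 1.59-fold lower (8.55 to 7.88).

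The TET genes were slightly higher in the DF library, and none was called. Tet3, the most abundant of them, was at 10.20 in the control library and 10.76 with DF, or 1174 and 1734 on the linear scale. The difference of 0.56, or 1.48-fold, lay within the middle 90% of its 200 neighbours, -0.50 to 0.58. Tet2 was at 7.54 and 7.82 (1.21-fold higher) and Tet1 at 5.26 and 5.38 (1.08-fold higher), both under the floor in each library. For genes of those levels the middle 90% of differences was wide, -0.91 to 1.03 around Tet2 and -1.72 to 1.93 around Tet1. Tet3 held 83.9% of the summed linear TET value in the control and 86.6% with DF. The sum was 1399 and 2002, 1.43-fold higher with DF, and the methyltransferase sum was 5.44 times the TET sum in the control and 2.09 times with DF.

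Mbd2, the reader of the set, was at 7.65 in the control library and 7.14 with DF, or 201 and 140.9 on the linear scale. That is 1.43-fold lower, under the floor in both libraries and well within the -1.32 to 1.07 that held the middle 90% of its neighbours. In the control the members ranked, from the highest value, Dnmt3a, Dnmt1, Tet3, Dnmt3b, Mbd2, Tet2, Uhrf1 and Tet1. With DF the order was Dnmt3a, Tet3, Dnmt1, Uhrf1, Tet2, Mbd2, Tet1 and Dnmt3b. Dnmt3b went from the fourth place to the last, and Tet3 and Dnmt1 exchanged places. Whether neighbours in either order differ beyond the spread between cultures cannot be said from 1 library each.

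On GRCm38, the plus strand carries Dnmt3b (chromosome 2, 153649450 to 153687730), Dnmt3a (chromosome 12, 3806007 to 3914443) and Uhrf1 (chromosome 17, 56303321 to 56323486). The minus strand carries Dnmt1 (chromosome 9, 20907209 to 20959888). The last 500 bases of each of the 8 gene models overlap no other annotated gene, although every member has more than 1 annotated coding transcript end and reads may come from an earlier one. Genes on the other strand overlap Dnmt3a, Dnmt3b, Tet2 and Tet3 elsewhere, and Dnmt3aos, the one over Dnmt3a, was listed at 0 in both libraries. A tandem relative, Dnmt3c, lies just beyond Dnmt3b at 153696652 to 153729907. Dnmt3c was not found by symbol among the genes listed, so it was not analysed here. The sources used here do not say how reads that fit both genes were treated.

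The genes whose pair of values was most like that of Dnmt3b, by Euclidean distance over the 2 libraries, were Sgcd, Manba and Iffo1. Sgcd, a sarcoglycan gene, was 0.42 log2 units away (8.49 in the control, 3.92 with DF). Manba, the lysosomal beta-mannosidase gene, was 0.75 away (8.03 and 4.59), and Iffo1, an intermediate filament family gene, 0.99 away (7.74 and 4.42). With 2 points per gene this likeness says only that both values were close. The 3' end of Iffo1 overlaps Gapdh on the other strand, so its reads are less certain.

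The wider machinery of DNA methylation was taken from 6 lists that hold 72 other genes. Of these 44 reached the floor, 33 of them within 1.5-fold, 7 called higher and 4 lower. Over all examined genes 10.2% were called higher and 10.9% lower, so nothing particular to the lists is read from these counts. The median of the 65 above 0 in both libraries was -0.05. Among 10 partners of the methyltransferases, 4 reached the floor and 1 was called, Lig1, the DNA ligase of replication, 1.66-fold lower with DF (11.17 to 10.44). Uhrf2, the relative of Uhrf1 and the most abundant partner, was at 11.28 and 11.12. Hells, a chromatin remodeller needed for methylation, was at 7.59 and 6.05, under the floor in both. Dnmt3l, the cofactor of the de novo enzymes in germ cells, was listed at 0 in both libraries. The median was -0.18 over the 4 partners at the floor and -0.54 over the 9 above 0, of which the other 5 lay under the floor.

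None of the 4 other methyl-CpG readers that reached the floor, of 10, was called. Over all examined genes 10.2% were called higher and 10.9% lower, so nothing is read from a count over 4 genes. Mbd6, the most abundant, was at 10.04 and 9.49, 1.47-fold lower with DF and just inside the limit. In the NuRD complex, which MBD2 joins, 11 of 12 subunits reached the floor, with 1 called higher and 1 lower, beside those same shares of all examined genes. Its main ATPase gene in these libraries, Chd4, was at 13.08 and 13.12. Chd3, an alternative ATPase, was 1.80-fold lower with DF (9.91 to 9.06), and Cdk2ap1 was 1.83-fold higher (8.39 to 9.26). The median of the 12 was 0.09.

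On the removal side, 7 of 11 base excision repair genes reached the floor, with 2 called higher and 0 lower, beside 10.2% and 10.9% of all examined genes, and a median of 0.31 over the 9 above 0 in both. Smug1, a uracil and hydroxymethyluracil glycosylase gene, was 1.62-fold higher (8.03 to 8.73) and passed the floor in the DF library alone. Lig3, a ligase of that pathway, was 1.55-fold higher (9.76 to 10.40), and its 3' end overlaps the opposite-strand gene Rffl, itself 1.64-fold higher. Ung, the uracil glycosylase gene and most abundant of the list, was at 10.44 and 10.22. Tdg, which excises the oxidised bases that TET enzymes make, was at 9.29 and 9.63. TET enzymes use 2-oxoglutarate. Among 13 TET partners and suppliers of it, 7 reached the floor. Idh2, the mitochondrial isocitrate dehydrogenase gene, was 2.18-fold lower with DF (12.08 to 10.96), whereas Idh1, its cytosolic counterpart, was at 13.48 and 13.44. Gadd45g, a stress-response gene linked to demethylation, was 1.56-fold higher (9.91 to 10.55).

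The methyl donor of all methyltransferases, S-adenosylmethionine, is made and recycled by the methionine cycle. Of 16 genes of that cycle, 11 reached the floor, with 3 called higher and 1 lower, beside 10.2% and 10.9% of all examined genes, and a median of -0.13 over the 14 above 0 in both. Mat2a, which makes the donor, was at 12.69 and 12.45. Mtr, methionine synthase, was 2.01-fold higher with DF (9.16 to 10.17), and Mthfd1, which supplies its folate units, 1.64-fold higher (7.61 to 8.32), the latter examined through its DF value alone. Nnmt, which spends the donor on nicotinamide and is abundant in fat, was 1.71-fold higher (8.56 to 9.33). Ahcyl2, a relative of the enzyme that clears the spent donor, was 1.93-fold lower (9.51 to 8.56), and a transcript on the other strand overlaps its 3' end.

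**Figure D3:**
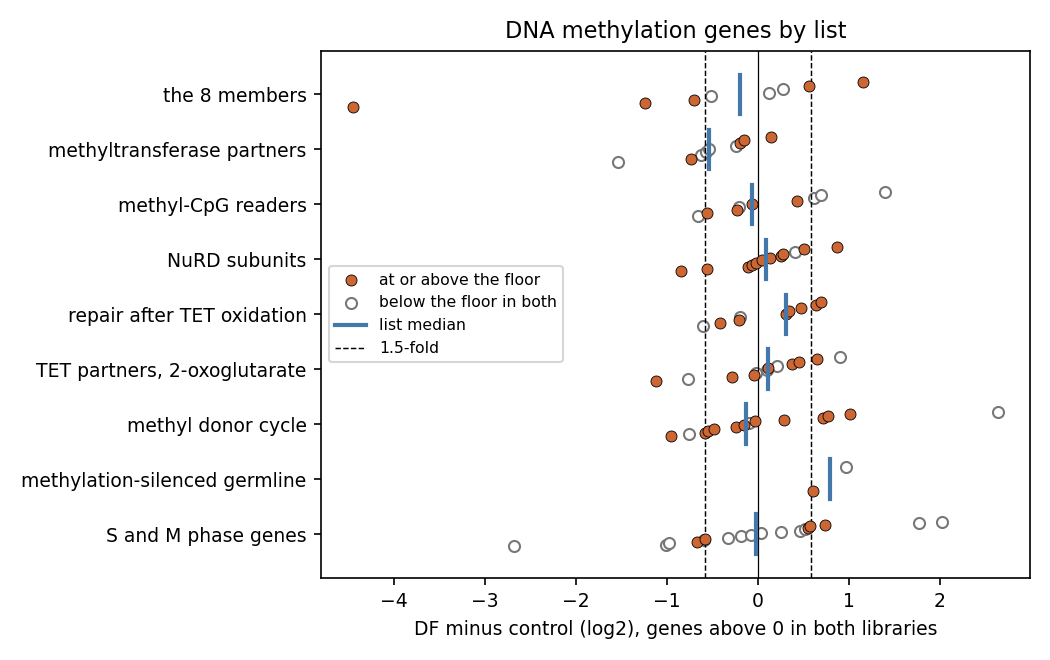
DF minus control (horizontal axis, log2) for each gene above 0 in both libraries, by list (vertical axis); filled points reached the floor, open points did not, blue bars are list medians and dashed lines mark 1.5-fold. Dnmt3b, at -4.45 in the top row, lies beyond every other plotted gene, while the list medians with at least 9 genes lie between -0.54 and 0.31.

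Germline genes are a known readout of promoter methylation in body cells, where several are silenced by it. Of 14 such genes, 11, among them Dazl and Tex101, were listed at 0 in both libraries and 1, Hormad1, in the DF library (2.55 in the control). Of all 24421 genes listed, 11408 were at 0 in the control and 12084 with DF, so nothing is read from that count. Brdt was at 5.61 and 6.58, under the floor. Sycp3 reached it, at 9.12 in the control library and 9.73 with DF (1.53-fold higher), but its 3' end overlaps the opposite-strand gene Chpt1, itself 1.82-fold higher (10.49 to 11.35). The sources used here do not say whether reads were counted by strand. DNA methylation itself was not analysed here.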

How the data were processed

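Messenger RNA of 1 control and 1 DF culture was sequenced from 3' ends (Lexogen kit, single 75 nt reads, 500 ng of total RNA, per the labels' protocols). The authors deposited log2 values per gene symbol. Bowtie2, edgeR and mm10 appear in the submitters' processing notes. Versions, read counter, strand setting and normalization were not given in the sources used here. In the sorted deposited files the highest 140 values are identical and 97.9% of ranks agree within 0.1, as after quantile normalization, so total output cannot be compared. Linear values lie on a grid of 1/8, as rank averages of 8 libraries would. The printed values may thus rest partly on libraries not analysed here. Library depth is unknown, and no interval or detection limit was computed. Whether 1 was added before the log is not given.

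Values of 0 were kept as listed. Differences were DF minus control, with pandas 2.3.3, and calls used 1.5-fold and the floor. Each member was set beside the 200 genes nearest in mean value among those above 0 in both libraries. No test could be run with 1 library per group. The calling code was tested on simulated data. Positions come from GENCODE release M21, which matched 23376 symbols (95.7%). RefSeq promoters were examined for 7 members. Member promoters on chromosome 18, where Mbd2 lies, were left out.

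The members and gene lists were chosen with earlier results of these data known. Named are all members, the most abundant and the called genes of each methylation, germline and cell cycle list (at most 4), and the 3 genes nearest to Dnmt3b. Hells, Dnmt3l, Tdg, Mki67, Cd36, the Hormad1 and Brdt values and the genes at 0 were named after their values were seen. Alternatives covered the floor, a pseudocount of 32, centring and the fold limit. Later additions were the floor in both libraries and a subtraction of 1 from linear values.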

Additional observations from a re-analysis of the deposited data

How the results depend on the processing

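Of 32 recomputed member differences (4 alternatives for each of the 8 genes: pseudocount, both centrings and subtraction of 1), none changed sign or its side of the 1.5-fold limit. In 3 the value moved by at least 0.1 log2 units: with a pseudocount of 32, Dnmt3b was -3.14 and Uhrf1 1.02, and centred on the 200 nearest genes, Tet1 was 0.25. The number of members called, 4, became 2 with the floor at the upper quartile (9.92) or in both libraries, since fewer genes are then examined. The median over members was -0.70 with either floor and also over the 5 members at the main floor. Of 50 pathway genes examined, S and M phase and germline genes included, 14 were called (9 higher and 5 lower). They became 32 of 85 with no floor, 5 of 23 with the floor at the upper quartile and 2 of 50 at 2-fold. Centred on the median gene they were 9 higher and 7 lower, and centred on the 200 nearest genes 8 and 8. Over all examined genes 10.2% were higher and 10.9% lower at 1.5-fold, and 2.56% and 3.21% at 2-fold. No such share was computed for the other settings, so nothing is read from these counts. No paired analysis was possible because each group holds 1 library. For the same reason no library could be left out. Depth is unknown, so it cannot be said how far counting error alone moves Dnmt3b with DF or Tet1.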
